A study of Mus musculus with 12 samples.

Results

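The nuclear genes for the subunits of mitochondrial oxidative phosphorylation were followed across 12 mouse oral tumours. Members were taken by symbol from the array's platform annotation: every gene whose symbol begins with Nduf, Uqcr, Atp5, Cox4, Cox5, Cox6, Cox7 or Cox8, and the succinate dehydrogenase genes Sdhb, Sdhc and Sdhd. This gave 85 genes on 107 of the 25697 probes. Of these, 74 genes passed the detection filter, a detection p under 0.05 on at least 6 of the 12 arrays, among 8420 genes that passed it in the whole series. The 74 genes comprise 30 of complex I, 3 of complex II, 6 of complex III, 14 of complex IV, 15 of complex V, 5 assembly factors whose symbols begin with Nduf, and the pseudogene Ndufs5-ps. Ndufa4 carries a complex I name but is now counted in complex IV, and it was placed there. Sdha is not analysed here.

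The samples were 6 KHR-NICD tumours and 6 KHR tumours of the mouth, all from FVB x C57BL/6 F1 mice and all isolated after 21 days of growth. NICD stands for the Notch intracellular domain, the released, active part of a Notch receptor. The sources used here do not spell out KHR, and they give neither the promoter that drives NICD nor the mouse behind each tumour. The labels call the samples biological replicates, and whether any came from 1 animal is not stated. Each tumour was hybridised to 1 Illumina MouseRef-8 v2 bead array, a single-colour array on which many beads report each probe.

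Oxidative phosphorylation takes electrons from NADH through complex I, or from succinate through complex II, to ubiquinone. Complex III passes them to cytochrome c and complex IV to oxygen, while protons are pumped across the inner membrane. Complex V, the ATP synthase, lets the protons return and makes ATP. Most subunits are encoded in the nucleus, and a few core subunits by mitochondrial DNA. Complex IV also has tissue isoforms: Cox6a2, Cox7a1 and Cox8b are the forms of heart and skeletal muscle, and Cox6a1, Cox7a2 and Cox8a are their counterparts in most other tissues. None of the 13 mitochondrially encoded subunits had a named probe here.

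All levels below are log2 intensities after background correction and quantile normalization, and all differences are KHR-NICD minus KHR. Each array detected 43.6% to 48.1% of its probes, with 33.0 to 37.4 beads per probe on average. Of 12 listed keratinocyte markers 11 had a probe, and all 11 passed the filter. Skeletal muscle transcripts varied widely between tumours of both types. A muscle score, the mean log2 level of the 17 of 32 listed muscle markers that passed the filter, spanned 6.98 to 9.20 in the KHR-NICD tumours and 6.71 to 9.75 in the KHR tumours. Of 8 listed heart muscle markers 7 had a probe: Myh6, Nppa, Tnni3, Actc1, Ryr2 and Pln were detected on 0 arrays, while Nppb was detected on all 12, at 8.74 ± 0.90 in KHR-NICD tumours and 9.73 ± 0.53 in KHR tumours (SD, n = 6 each; limma adjusted p = 0.258). Of 6 brown adipocyte markers, Ucp1, Dio2, Zic1 and Prdm16 were detected on 0 arrays. Cidea was detected on 12, at 11.25 ± 0.27 in KHR-NICD tumours and 11.45 ± 0.05 in KHR tumours. Elovl3 was detected on 7, at 6.002 ± 1.06 in KHR-NICD tumours and 6.004 ± 1.76 in KHR tumours. The Y-linked transcript Eif2s3y was detected in 5 tumours, 2 KHR-NICD and 3 KHR, and not in the other 7. In such bulk tissue, fewer cells of a type and less RNA per cell cannot be told apart.

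The first question was whether the family differs between tumours with and without NICD. No member passed an adjusted p of 0.05 in either direction, where 0.202% of all genes did (limma, Benjamini-Hochberg over 8420 genes), and the lowest adjusted p of a member was 0.123. At an unadjusted p under 0.05, 12 of 74 members (16.2%) were higher in KHR-NICD tumours, against 6.83% of all genes. On the lower side 0 members did so, against 7.10% of all genes. The differences were small: they ran between -0.20 and 0.65, with a median of 0.11, against a median of 0.01 over all genes. Their sign was positive for 64 of 74 members (86.5%), against 51.1% of all genes, but with median centring in place of quantile normalization 34 of 74 (45.9%) were positive, against 32.7% of all genes. Median centring put the median difference of all genes at -0.08 and that of the members at -0.01. Relative to all genes the members' median thus lay 0.10 higher with quantile normalization and 0.07 higher with median centring. Of the members, 3 had all 6 KHR-NICD tumours above all 6 KHR tumours (4.05%, against 0.713% of all genes), namely Atp5a1, Atp5g2 and Uqcr10. None had the reverse, against 0.855%. The members were brighter than the genes they are set against. They averaged 10.81 in KHR-NICD tumours and 10.70 in KHR tumours, where all genes averaged 8.54 in either type. The part of brightness in these shares was not tested.

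**Figure D1:**
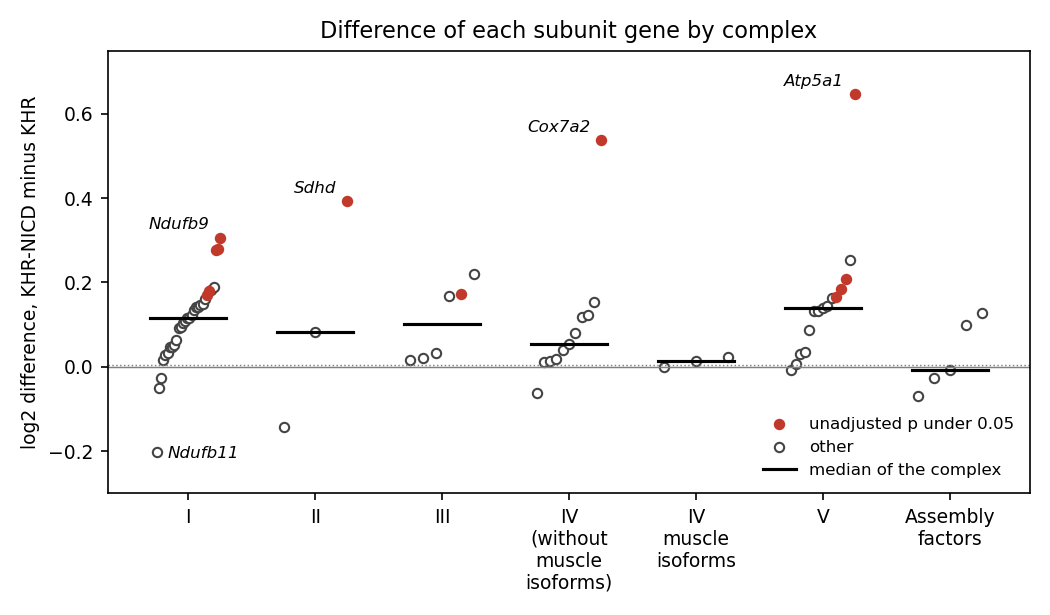
The log2 difference, KHR-NICD minus KHR, is plotted for each subunit gene that passed the filter, grouped by complex along the horizontal axis; bars mark the median of each complex and the dotted line the median of all genes (0.01). Filled points have an unadjusted p under 0.05, none has an adjusted p under 0.05, and Atp5a1 (0.65) and Cox7a2 (0.54) lie farthest from 0.

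Complex I, the NADH dehydrogenase, had 33 genes on the array and 30 past the filter. Of these 27 (90%) had a positive difference, against 51.1% of all genes. Their median was 0.12, and -0.01 with median centring, which put the median of all genes at -0.08. At an unadjusted p under 0.05, 5 of the 30 were higher, against 6.83% of all genes. Ndufa3, an accessory subunit of the membrane arm, had the smallest p of the complex. Its levels were 12.01, 11.78, 11.96, 12.16, 11.85 and 11.91 in the KHR-NICD tumours, against 11.52, 11.95, 11.54, 11.55, 11.61 and 11.83 in the KHR tumours. KHR 2 and KHR 6 reached into the range of the KHR-NICD tumours, and the other KHR tumours lay below it. The difference of Ndufa3 was 0.28 ± 0.10 (SE, n = 6 each), a 1.21-fold level, and did not pass the test (limma adjusted p = 0.227).

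Ndufb9, another accessory subunit of the membrane arm, had 6.54, 6.88, 6.65, 6.55, 6.54 and 6.65 in the KHR-NICD tumours, against 6.63, 6.51, 6.28, 5.82, 6.29 and 6.43 in the KHR tumours. Here KHR 1 alone lay inside the KHR-NICD range, and KHR 4 lay far below the rest. Its difference was 0.31 ± 0.12 (SE, n = 6 each; limma adjusted p = 0.297). Ndufs8, a core subunit of the matrix arm that carries iron-sulphur clusters, had 11.53, 11.77, 11.81, 11.74, 11.61 and 11.73 in the KHR-NICD tumours, against 11.67, 11.43, 11.47, 11.47, 11.51 and 11.55 in the KHR tumours. Again KHR 1 was the highest KHR tumour, and KHR 6 passed the lowest KHR-NICD tumour. The difference of Ndufs8 was 0.18 ± 0.07 (SE; limma adjusted p = 0.308), and it was 0.03 with median centring.

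The other 2 complex I genes with an unadjusted p under 0.05 were Ndufb5, at 0.28, and Ndufs6, at 0.17. Ndufv1, the subunit that binds NADH, hardly differed, at 12.43 ± 0.05 in KHR-NICD tumours and 12.40 ± 0.07 in KHR tumours (SD, n = 6 each). The lowest difference of the complex belonged to Ndufb11, at -0.20 with an adjusted p of 0.461. Ndufb11 is dim, at 5.57 ± 0.19 in KHR-NICD tumours and 5.77 ± 0.21 in KHR tumours, and its other kept probe differed by 0.18 in the opposite direction. Its direction was therefore not the same on both probes. Ndufs1 and Ndufab1, the largest core subunit and the mitochondrial acyl carrier protein, were detected on 0 arrays.

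Complex II, succinate dehydrogenase, has 3 members here, and they did not share a direction. Sdhd, 1 of its 2 membrane anchors, had 5.58, 5.17, 5.94, 5.82, 5.52 and 5.97 in the KHR-NICD tumours, against 5.45, 5.41, 5.48, 5.41, 4.89 and 5.01 in the KHR tumours. All KHR-NICD tumours but KHR-NICD 2 lay above every KHR tumour. The difference of Sdhd was 0.39 ± 0.15 (SE, n = 6 each), a 1.31-fold level, with a limma adjusted p of 0.271. Sdhd is close to background and was detected in 5 KHR-NICD tumours and 4 KHR tumours.

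Sdhc, the other membrane anchor, had 10.53, 10.18, 10.52, 10.61, 10.66 and 10.53 in the KHR-NICD tumours, against 10.70, 10.80, 10.67, 10.52, 10.58 and 10.62 in the KHR tumours. The groups overlapped apart from KHR-NICD 2, which was the lowest tumour of all, and the difference was -0.14 ± 0.09 (SE; limma adjusted p = 0.501). Sdhb, the iron-sulphur subunit, averaged 8.67 ± 0.17 in KHR-NICD tumours and 8.59 ± 0.18 in KHR tumours (SD, n = 6 each). Its difference of 0.08 (limma adjusted p = 0.775) was -0.01 with median centring.

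Complex III passes electrons on to cytochrome c, and 6 of its 8 genes passed the filter. All 6 had a positive difference, against 51.1% of all genes. The differences ran from 0.02 to 0.22, with a median of 0.10. With median centring the median was -0.03, where that of all genes was -0.08. Uqcr10, a small subunit of the complex, had 13.57, 13.57, 13.61, 13.60, 13.58 and 13.58 in the KHR-NICD tumours, against 13.37, 13.50, 13.31, 13.40, 13.38 and 13.51 in the KHR tumours. The KHR-NICD tumours lay within a narrow band above every KHR tumour. The difference of Uqcr10 was 0.17 ± 0.06 (SE, n = 6 each), or 1.13-fold, with a limma adjusted p of 0.238. A second kept probe for Uqcr10 differed by 0.15.

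Uqcr11, another small subunit, averaged 12.93 ± 0.04 in KHR-NICD tumours and 12.76 ± 0.15 in KHR tumours (SD, n = 6 each), a difference of 0.17 (limma adjusted p = 0.362). Uqcrb, which helps bind ubiquinone, averaged 9.39 ± 0.37 in KHR-NICD tumours and 9.17 ± 0.22 in KHR tumours, a difference of 0.22 (limma adjusted p = 0.577). The core proteins Uqcrc1 and Uqcrc2 differed by 0.02 each. Cyc1, the cytochrome c1 of this complex, which the symbols do not take in, differed by 0.09. Uqcrq was detected on 0 arrays, and Uqcrfs1, the Rieske iron-sulphur protein, on 4.

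Complex IV, cytochrome c oxidase, had 11 members past the filter apart from the muscle isoforms. Their median difference was 0.06, and -0.06 with median centring, where that of all genes was -0.08. Cox7a2, the ubiquitous isoform of subunit 7a, stood apart from the other 10. It had 8.30, 7.77, 7.76, 7.81, 7.39 and 7.90 in the KHR-NICD tumours, against 7.85, 7.37, 6.95, 7.20, 7.17 and 7.16 in the KHR tumours. KHR 1 lay among the KHR-NICD tumours, and the others from KHR lay below all of them. The difference of Cox7a2 was 0.54 ± 0.16 (SE, n = 6 each), a 1.45-fold level, with an unadjusted p of 0.00534 and a limma adjusted p of 0.162. With median centring the difference was 0.46.

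The other ubiquitous members of complex IV ran between -0.06, for Cox5a, and 0.15, for Cox7c (limma adjusted p = 0.515). Cox4i1, the form of subunit 4 found in most tissues, averaged 13.26 ± 0.09 in KHR-NICD tumours and 13.24 ± 0.17 in KHR tumours (SD, n = 6 each). Cox8a averaged 12.74 ± 0.06 in KHR-NICD tumours and 12.62 ± 0.18 in KHR tumours, and Cox6a1 averaged 12.63 ± 0.11 in KHR-NICD tumours and 12.56 ± 0.17 in KHR tumours. The differences of Cox8a and Cox6a1, 0.12 and 0.08 (limma adjusted p = 0.577 and 0.752), were -0.02 and -0.07 with median centring. The median of all genes was 0.01 with quantile normalization and -0.08 with median centring. The sign of either gene thus depends on the scaling. Cox4i2, Cox7b2 and Cox8c, forms of particular tissues such as lung or testis, were detected on 0 arrays.

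Complex V had 15 of 16 genes past the filter, of which 14 (93.3%) had a positive difference, against 51.1% of all genes. Its median was 0.14, and 0.01 with median centring, where that of all genes was -0.08. Atp5a1, the alpha subunit of the catalytic F1 head, had the largest difference and the smallest p of all 74 members. It had 9.12, 8.32, 8.18, 8.54, 8.17 and 8.26 in the KHR-NICD tumours, against 8.04, 7.74, 7.53, 8.03, 7.96 and 7.40 in the KHR tumours. The groups did not overlap, and KHR-NICD 1 was the highest. The difference of Atp5a1 was 0.65 ± 0.17 (SE, n = 6 each; 95% interval 0.28 to 1.01), a 1.57-fold level, with an unadjusted p of 0.00216 and a limma adjusted p of 0.123. With detection of Eif2s3y as a covariate the difference was 0.70 and its limma adjusted p 0.0378, and with the muscle score added they were 0.77 and 0.0308. In the other alternatives, which include leaving out each tumour, it was positive and did not pass.

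**Figure D2:**
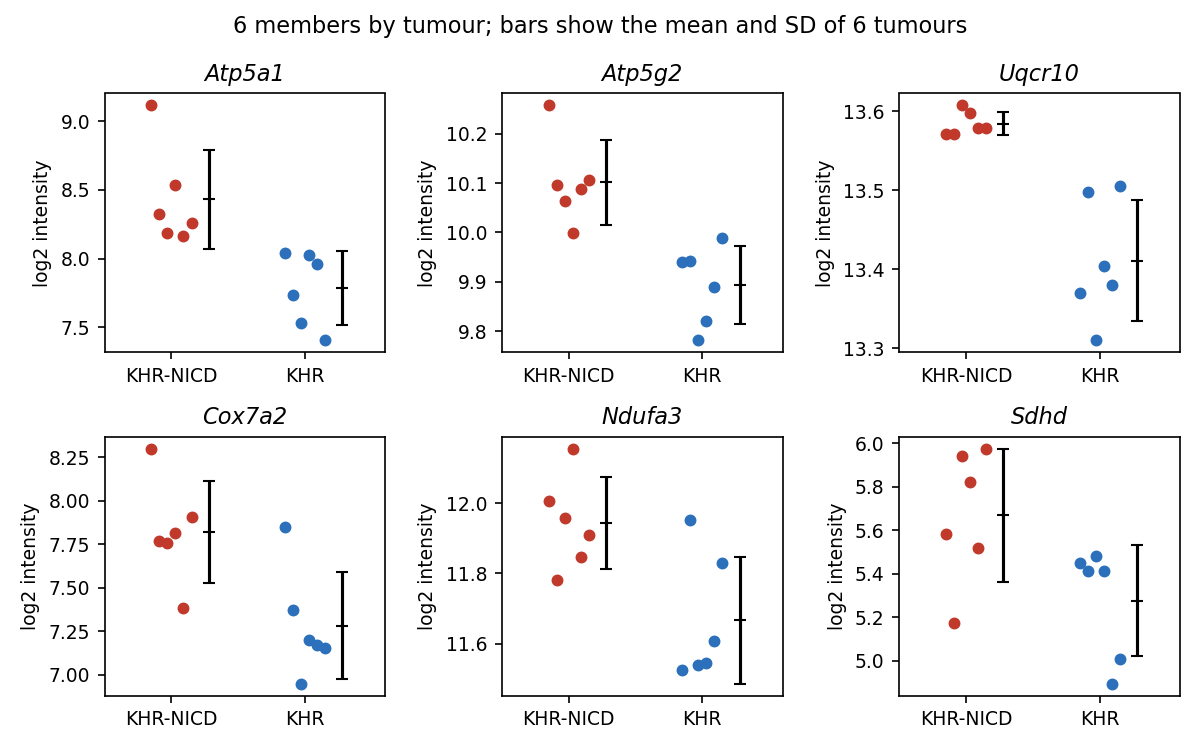
Log2 intensity of 6 members in each tumour, with KHR-NICD tumours on the left and KHR tumours on the right of each panel; bars show the mean and SD of 6 tumours. Atp5a1, Atp5g2 and Uqcr10 have no overlap between the tumour types, while 1 or more KHR tumours reach into the KHR-NICD range for Cox7a2, Ndufa3 and Sdhd.

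Atp5g2 is 1 of 3 genes for the same subunit c of the membrane rotor. It had 10.26, 10.10, 10.06, 9.998, 10.09 and 10.11 in the KHR-NICD tumours, against 9.94, 9.94, 9.78, 9.82, 9.89 and 9.99 in the KHR tumours. The groups came close to each other but did not overlap. The difference of Atp5g2 was 0.21 ± 0.07 (SE, n = 6 each; limma adjusted p = 0.207), and 0.10 with median centring. The other genes for subunit c differed by 0.19 for Atp5g1 and 0.03 for Atp5g3.

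Atp5j2, subunit f of the membrane part, averaged 13.23 ± 0.05 in KHR-NICD tumours and 13.06 ± 0.09 in KHR tumours (SD, n = 6 each). Its difference of 0.16 (limma adjusted p = 0.300) was 0.04 with median centring. Atp5b, the beta subunit that forms the catalytic head with the alpha subunit, was at 14.48 ± 0.04 in KHR-NICD tumours and 14.48 ± 0.02 in KHR tumours, with a difference of -0.01. Atp5b spanned 0.11 over the 12 tumours, the narrowest span of all 74 members, and whether the range of its probe limits this was not tested. Atp5k was detected on 0 arrays.

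Averaged over its 15 members, complex V had 11.27, 11.31, 11.29, 11.27, 11.24 and 11.28 in KHR-NICD 1 to 6, against 11.17, 11.16, 11.03, 11.12, 11.11 and 11.14 in KHR 1 to 6. Every KHR-NICD tumour lay above every KHR tumour in this mean with quantile normalization. With median centring the tumour types overlapped, at 11.06 to 11.35 in KHR-NICD tumours and 11.03 to 11.32 in KHR tumours. In complexes I, III and IV the tumour types overlapped with either scaling. KHR 1 and KHR 2 lay inside the range of the KHR-NICD tumours or above it in complexes I and IV, and KHR 2 alone did in complex III. In each of these complexes KHR 3, KHR 4 and KHR 5 lay lowest. Over the 71 members other than the muscle isoforms the mean was 10.92 ± 0.03 in KHR-NICD tumours and 10.81 ± 0.08 in KHR tumours (SD, n = 6 each). With median centring this mean was 10.856 in KHR-NICD tumours and 10.853 in KHR tumours. Minus the mean of all genes of the same tumour, it was 2.37 and 2.28 with median centring, and 2.38 and 2.27 with quantile normalization.

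**Figure D3:**
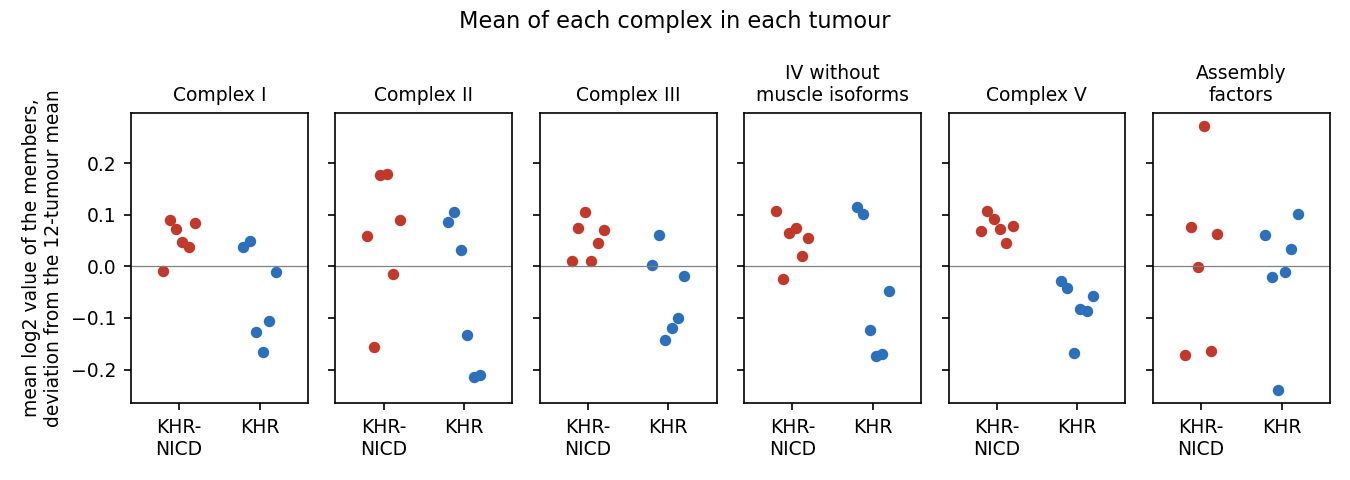
For each complex, the mean log2 intensity of its members in 1 tumour is shown as the deviation from the mean of all 12 tumours, with KHR-NICD tumours left of KHR tumours. Complex V has no overlap (0.05 to 0.11 in KHR-NICD tumours, -0.17 to -0.03 in KHR tumours), and in the other panels the tumour types overlap.

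Of the 5 complex I assembly factors, 2 had a positive and 3 a negative difference, with a median of -0.01, and none passed the test. Ndufaf4 differed by 0.13, Ndufaf1 by 0.10 and Ndufaf3 by -0.07, with limma adjusted p between 0.671 and 0.856. Further genes of the pathway were taken from lists that also held no called gene. Of 33 listed assembly factors with other symbols, 25 passed the filter, with a median difference of 0.10. At an unadjusted p under 0.05, 4 of the 25 were higher, against 6.83% of all genes. On the lower side 1 of the 25 did so, against 7.10% of all genes. This was Cox10, which makes haem for complex IV, at -0.24. Coa6, which helps build the copper site of complex IV, differed by 0.31 (limma adjusted p = 0.154), and Cox19 by 0.21 (limma adjusted p = 0.236).

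Among 11 measured genes of electron carriers and their feeders the median difference was 0.08. Coq9 and Coq7, which act in ubiquinone synthesis, differed by 0.33 (limma adjusted p = 0.330) and 0.23 (limma adjusted p = 0.487). The 8 measured nucleotide carriers and related genes had a median of -0.03, with Ckmt1, a mitochondrial creatine kinase, at -0.19, and Atpif1, the inhibitor of complex V, at 0.12. Of 16 measured genes of the tricarboxylic acid cycle and its entry, 1 was higher and 2 lower at an unadjusted p under 0.05. Over all genes 6.83% were higher and 7.10% lower at that p. The median of the 16 was -0.01. Cs, citrate synthase, differed by -0.23 (limma adjusted p = 0.317) and Idh3g by 0.16 (limma adjusted p = 0.308). Pdk4, a kinase that switches off pyruvate dehydrogenase, averaged 5.92 ± 0.48 in KHR-NICD tumours and 7.09 ± 0.77 in KHR tumours (SD, n = 6 each), a difference of -1.16 (limma adjusted p = 0.141).

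Of 12 measured regulators of mitochondrial gene expression the median was 0.05, with Tfb1m at 0.31 (limma adjusted p = 0.361) and Tfb2m at 0.15 (limma adjusted p = 0.459). For uncoupling and the handling of reactive oxygen 4 genes were measured, with a median of 0.06. Txn2 differed by 0.30 and Gpx4 by 0.10. No theme is claimed from these lists. Of the marker lists, 0 fibroblast, macrophage or endothelial genes passed the adjusted test. Their median differences were 0.22 over 8 measured fibroblast genes, 0.22 over 5 macrophage genes and -0.17 over 6 endothelial genes. At an unadjusted p under 0.05, 3 fibroblast, 0 macrophage and 1 endothelial genes were higher, against 6.83% of all genes. The 11 measured keratinocyte markers had a median of 0.01, and 0 passed the adjusted test. At an unadjusted p under 0.05, 0 of the 11 were higher and 1 lower, against 6.83% and 7.10% of all genes. The lower one was Dsg3, at -0.68 (limma adjusted p = 0.112). The part of these cell types in the members' differences was not tested.

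The muscle isoforms of complex IV behaved unlike every other member in their spread. Cox6a2 had 8.60, 8.65, 9.93, 7.98, 9.56 and 9.56 in the KHR-NICD tumours, against 10.77, 10.66, 9.49, 7.03, 8.38 and 7.82 in the KHR tumours. Cox7a1 had 6.73, 6.81, 7.98, 6.43, 7.59 and 7.34 in the KHR-NICD tumours, against 8.97, 8.82, 7.51, 5.26, 6.37 and 5.86 in the KHR tumours. Cox8b had 7.60, 8.25, 9.47, 7.49, 8.89 and 8.90 in the KHR-NICD tumours, against 10.25, 10.19, 8.98, 6.35, 7.55 and 7.29 in the KHR tumours. For each of these genes KHR 1 and KHR 2 were highest and KHR 4 was lowest, so both extremes were KHR tumours and the KHR-NICD tumours lay between them.

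From the lowest to the highest tumour the span was 3.74 for Cox6a2, 3.71 for Cox7a1 and 3.90 for Cox8b on the log2 scale, or 13.4-fold, 13.1-fold and 14.9-fold. The other 71 members spanned 0.11 to 1.71, with a median of 0.50. Between the tumour types none of the muscle isoforms differed beyond this spread. Cox6a2 averaged 9.05 ± 0.75 in KHR-NICD tumours and 9.02 ± 1.54 in KHR tumours (SD, n = 6 each). The difference of Cox6a2 was 0.02, with a 95% interval of -1.29 to 1.34 (limma adjusted p = 0.993), so a change of up to about that size in either direction could not be seen with 6 tumours a type. Cox7a1 was detected in 6 KHR-NICD tumours and 5 KHR tumours. Its means were 7.15 ± 0.59 in KHR-NICD tumours and 7.13 ± 1.55 in KHR tumours, and those of Cox8b 8.44 ± 0.79 in KHR-NICD tumours and 8.44 ± 1.62 in KHR tumours. The limma adjusted p for tumour type was 0.997 for Cox7a1 and 0.9997 for Cox8b.

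Sequences around the transcription start are shown for muscle isoforms and ubiquitous partners, because these genes serve the same 3 subunits and vary so differently between the tumours. They come from RefSeq on GRCm38.p6 and run 5′ to 3′ on the gene's strand over 300 bases, 250 before the start and 50 after it. In the muscle isoforms, capitals mark E-boxes (CANNTG) and matches to the letters TATAAA of the TATA box motif, wherever they lie in the window. In the partners Cox6a1 and Cox8a, capitals mark matches to an NRF1 motif and to the GABP motif CCGGAAG, on either strand, and E-boxes are left in lower case. The partner Cox7a2 holds no NRF1, GABP or TATAAA match and has no capitals. Cox6a2 is not shown.
Cox7a1, chr7:30183921-30184220, plus strand: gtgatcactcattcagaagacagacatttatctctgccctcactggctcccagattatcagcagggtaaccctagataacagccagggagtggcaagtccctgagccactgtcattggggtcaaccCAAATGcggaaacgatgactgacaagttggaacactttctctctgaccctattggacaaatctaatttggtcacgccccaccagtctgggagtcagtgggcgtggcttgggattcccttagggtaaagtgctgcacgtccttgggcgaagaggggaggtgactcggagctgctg
Cox8b, chr7:140900397-140900696, minus strand: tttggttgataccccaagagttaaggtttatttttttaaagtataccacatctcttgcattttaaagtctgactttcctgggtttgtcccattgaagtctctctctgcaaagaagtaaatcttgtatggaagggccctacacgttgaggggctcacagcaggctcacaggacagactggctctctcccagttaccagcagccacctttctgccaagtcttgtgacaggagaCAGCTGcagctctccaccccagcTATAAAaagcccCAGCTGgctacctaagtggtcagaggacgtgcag
Cox6a1, chr5:115348909-115349208, minus strand: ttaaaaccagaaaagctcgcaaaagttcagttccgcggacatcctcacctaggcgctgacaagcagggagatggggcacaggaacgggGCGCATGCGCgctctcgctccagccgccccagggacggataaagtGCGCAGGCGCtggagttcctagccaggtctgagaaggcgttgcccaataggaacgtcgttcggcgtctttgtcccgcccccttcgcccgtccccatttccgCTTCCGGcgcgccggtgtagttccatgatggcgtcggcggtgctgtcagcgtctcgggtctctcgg
Cox7a2, chr9:79759804-79760103, minus strand: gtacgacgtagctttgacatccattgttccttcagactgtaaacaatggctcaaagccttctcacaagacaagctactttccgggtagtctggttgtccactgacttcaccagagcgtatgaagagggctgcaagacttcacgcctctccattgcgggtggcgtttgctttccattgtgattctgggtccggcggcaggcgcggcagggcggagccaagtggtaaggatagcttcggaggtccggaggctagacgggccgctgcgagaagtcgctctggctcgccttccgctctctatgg
Cox8a, chr19:7217567-7217866, minus strand: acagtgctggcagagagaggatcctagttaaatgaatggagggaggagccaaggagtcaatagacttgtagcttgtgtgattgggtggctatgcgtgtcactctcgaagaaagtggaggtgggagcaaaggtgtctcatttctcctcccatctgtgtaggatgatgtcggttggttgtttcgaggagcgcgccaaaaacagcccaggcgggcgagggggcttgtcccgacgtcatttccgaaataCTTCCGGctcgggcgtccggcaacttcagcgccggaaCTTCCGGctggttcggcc

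Cox7a1 holds 1 E-box and no TATAAA, and Cox8b holds 2 E-boxes of the form CAGCTG and 1 TATAAA. In Cox8b the TATAAA and the second CAGCTG lie within the 50 bases after the annotated start. The first CAGCTG lies before that start. Neither Cox7a1 nor Cox8b holds an NRF1 or GABP match. NRF1 and GABP are transcription factors known to act on many nuclear genes for respiratory subunits, and E-boxes are bound by the muscle factors of the MyoD family among many others. Among the partners, Cox6a1 holds 2 NRF1 matches, 1 GABP match and 0 E-boxes, and Cox8a holds 2 GABP matches and 1 E-box. Cox7a2 holds 1 E-box and no NRF1 or GABP match, the same counts as Cox7a1.

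Of the 85 members, 70 had a window of this kind, 75 windows in all. Both strands were searched. The NRF1 motif was present in 17 of the 73 windows outside the muscle isoforms (23.3%), against 4.60% of 32851 windows of all genes. The shares for CCGGAAG were 23.3% and 8.86%, and those for a YY1 motif were 6.85% and 0.852%. CANNTG, which includes CAGCTG, was in 69.9% of the members' windows against 72.3% of all, and CAGCTG in 5.48% against 16.3%. TATAAA was in 9.59% against 13.6%, and AAGGTCA, a motif of the oestrogen-related receptors, in 9.59% against 4.72%. The median share of G and C bases in those windows was 57.7%, against 52.7% in all. These are matches of letters and show no binding.

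The levels of the muscle isoforms were then set against the muscle score, which contains no member. The score was 8.04, 7.48, 9.20, 6.98, 8.73 and 8.62 in KHR-NICD 1 to 6, against 9.75, 9.62, 8.61, 6.71, 7.89 and 6.96 in KHR 1 to 6. With tumour type in the model, 4 of 74 members had a positive slope on the score that passed an adjusted p of 0.05 (5.41%, against 6.15% of all genes) and 1 a negative one (against 4.44%). The share of members with either, 6.76%, was below the 10.6% of all genes. Cox6a2 had a slope of 1.09 ± 0.07 (SE) per log2 unit of the score (limma adjusted p = 1.37e-06). Cox7a1 had a slope of 1.04 ± 0.09 (limma adjusted p = 1.11e-05) and Cox8b of 1.11 ± 0.10 (limma adjusted p = 3.74e-05). These transcripts rose nearly in step with the muscle markers. Among the further pathway lists, the mitochondrial creatine kinase Ckmt2, detected on 9 arrays, had a slope of 1.44 ± 0.07 (limma adjusted p = 3.24e-07). Sod2 had 0.12 (limma adjusted p = 0.0498) and Dhodh -0.15 (limma adjusted p = 0.0268), and no other gene of these lists passed. Elovl3, listed as a brown adipocyte marker, had a slope near those of the muscle isoforms, 1.12 ± 0.20 (limma adjusted p = 0.00593). Cidea had 0.01 (limma adjusted p = 0.909). Krt15, listed as a keratinocyte marker, had 1.04 ± 0.18 (limma adjusted p = 0.00509). Of 11 measured keratinocyte markers, 1 slope passed as positive and 2 as negative. Passing slopes numbered 2 positive and 0 negative among 8 fibroblast markers, and 1 and 0 among 5 macrophage markers. Of 6 endothelial markers 0 passed as positive and 1 as negative. The part of other cell types in the isoforms' slopes was not tested.

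The other calls were small. Ndufs3, a core subunit of the matrix arm of complex I, had a slope of 0.14 ± 0.04 (limma adjusted p = 0.0299). Atp5pb, subunit b of the peripheral stalk of complex V, had a slope of -0.18 ± 0.04 (limma adjusted p = 0.0224). Atp5pb was lowest in KHR 1, at 9.82, and highest in KHR-NICD 4, at 10.74. Its call was lost, with adjusted p of 0.0517 to 0.0905, on leaving out KHR-NICD 3, KHR-NICD 4, KHR 1, KHR 2 or KHR 6, and in several other alternatives. The next negative slopes by p were -0.14 ± 0.05 for Ndufaf4 (limma adjusted p = 0.0695) and -0.07 ± 0.05 for Ndufb7 (limma adjusted p = 0.395). In the alternatives other than leaving out a tumour, the limma adjusted p of Ndufaf4 ran from 0.0392 to 0.946. Without the muscle isoforms, 1 of 71 members had a positive and 1 a negative call, and the largest slope in size was 0.23, for Ndufb2 (limma adjusted p = 0.0694). Ndufb2 is dim, at 5.93 ± 0.41 in KHR-NICD tumours and 5.83 ± 0.35 in KHR tumours (SD), and was detected on 11 arrays. The median slope over all members was 0.02, against -0.01 over all genes. In complex IV without muscle isoforms 10 of 11 slopes were positive and 0 passed, with a median of 0.06. In complex I 16 of 30 were positive, with a median of 0.006. Positive slopes numbered 3 of 3 in complex II, 3 of 6 in complex III and 10 of 15 in complex V. Over all genes they numbered 3981 of 8403.

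**Figure D4:**
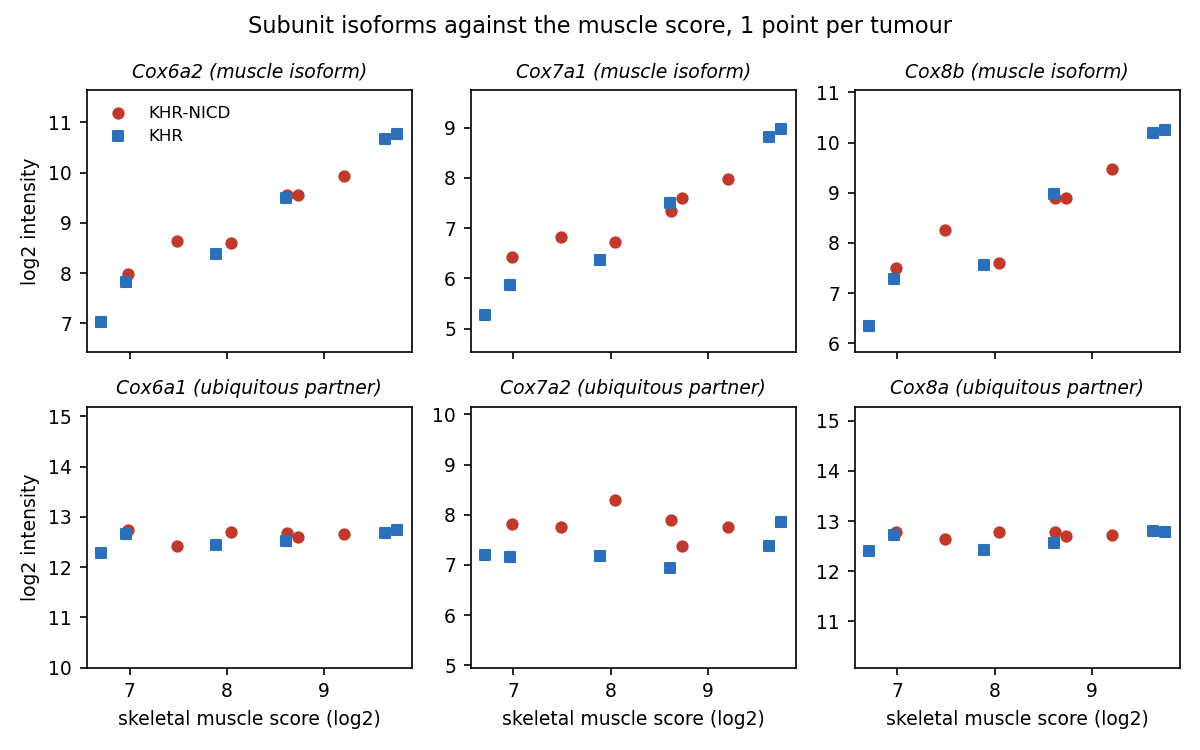
Log2 intensity of each isoform (vertical axis) against the skeletal muscle score (horizontal axis, log2), 1 point per tumour; the top row holds muscle isoforms and the bottom row their ubiquitous partners, and every panel spans the same height. The muscle isoforms climb with the score in both tumour types (slopes of 1.04 to 1.11), while the partners vary over a smaller range (slopes of 0.06 to 0.08).

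No slope of a ubiquitous partner on the score passed the test. The slopes were 0.07 for Cox6a1 (limma adjusted p = 0.332), 0.08 for Cox7a2 (limma adjusted p = 0.566) and 0.06 for Cox8a (limma adjusted p = 0.353). As correlations over the 12 tumours, Cox6a2 reached a Pearson r of 0.979 and a Spearman rho of 0.979 (permutation p = 1e-05, the smallest that 100000 resamples can give; adjusted over 6 relations 2e-05 and 3e-05). Without the tumours farthest from the median score, KHR 4 and KHR 1, its r was 0.974. Cox7a1 had an r of 0.961 and a rho of 0.958, and Cox8b an r of 0.950 and a rho of 0.951, with adjusted permutation p of 2e-05 for each r and of 3e-05 and 4e-05 for the rho values. Without KHR 4 and KHR 1, r was 0.941 for Cox7a1 and 0.921 for Cox8b.

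Among the partners, Cox6a1 had an r of 0.475 and a rho of 0.455 (permutation p = 0.117 and 0.136, adjusted 0.176 and 0.163). Cox8a had an r of 0.440 and a rho of 0.560 (permutation p = 0.154 and 0.0606, adjusted 0.185 and 0.0909). Cox7a2 had an r of 0.167 and a rho of 0.287 (permutation p = 0.599 and 0.366, adjusted 0.599 and 0.366). Without KHR 4 and KHR 1 these r values were 0.096 for Cox6a1, 0.147 for Cox8a and -0.07 for Cox7a2. Over all 12 tumours no relation of a partner passed.

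Within the 7 tumours without Eif2s3y, r with the score was 0.982 for Cox6a2 (exact permutation p = 0.000198), 0.951 for Cox7a1 (exact permutation p = 0.000397) and 0.962 for Cox8b (exact permutation p = 0.00159). In the 5 tumours with Eif2s3y, r was 0.894 for Cox6a2, 0.782 for Cox7a1 and 0.697 for Cox8b, given as a description without a p since there are under 6 tumours. In the fit on those 7 tumours alone the slopes were 0.88 for Cox6a2 (limma adjusted p = 0.0183), 0.86 for Cox7a1 (limma adjusted p = 0.0873) and 0.82 for Cox8b (limma adjusted p = 0.0591), so of these only Cox6a2 still passed. In the same 7 tumours Cox6a1 had an r of 0.884 (exact permutation p = 0.0101), Cox8a of 0.638 (exact permutation p = 0.121) and Cox7a2 of -0.01 (exact permutation p = 0.985). In the 5 tumours with Eif2s3y these were 0.217 for Cox6a1, 0.116 for Cox8a and 0.476 for Cox7a2. The other kept probe of Cox6a1 had an r of 0.605 over the 12 tumours.

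Among themselves the muscle isoforms correlated at r of 0.987 to 0.990 over 12 tumours. Of all genes past the filter, those most like Cox6a2 by Pearson r over the 12 tumours were Ppp1r3c at 0.995, Cox8b and Cox7a1 at 0.990, Pfkm at 0.989 and Mb at 0.986. Pfkm is the muscle form of phosphofructokinase and Mb is myoglobin. For the 71 other members r with the score ran from -0.74 to 0.84, with a median of 0.13. All these values come from the same 12 arrays, so such correlations are descriptions.

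The difference was also taken within the sets of tumours split by Eif2s3y detection. In the 7 tumours without it, 4 KHR-NICD and 3 KHR, 51 of 74 members (68.9%) had a positive difference, against 51.9% of all genes. In the 5 tumours with it, 2 KHR-NICD and 3 KHR, 59 of 74 (79.7%) did, against 49.4%. Opposite signs in these sets were held by 30 members (40.5%), against 45.3% of all genes. The interaction of tumour type with Eif2s3y detection passed for 24 of 8420 genes (0.285%) and for 0 members (limma). At an unadjusted p under 0.05 it stood for 10 members (13.5%), against 17.9% of all genes. The lowest adjusted p was 0.0538, for Ndufc2 of complex I, which differed by -0.50 in the tumours with Eif2s3y and by 0.38 in those without. Atp5o, which links the head and the stalk of complex V, differed by -0.49 with and 0.34 without (adjusted p of the interaction 0.0692). Ndufc2 was lowest in KHR-NICD 1, at 10.36, and Atp5o too, at 7.89.

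For the muscle isoforms the differences were 0.55, 0.75 and 0.48 for Cox6a2, Cox7a1 and Cox8b in the tumours with Eif2s3y, and -0.88, -1.005 and -0.93 in those without, where KHR 1 and KHR 2 belong. The muscle score ran from 6.71 to 8.04 in the tumours with Eif2s3y and from 7.48 to 9.75 in those without. KHR 1 to 3 lacked Eif2s3y, at scores of 8.61 to 9.75, and KHR 4 to 6 had it, at 6.71 to 7.89. In the KHR tumours this split and the muscle score thus cannot be told apart. Atp5a1 differed by 1.03 with and 0.46 without Eif2s3y, and Cox7a2 by 0.88 with and 0.31 without. Uqcr10 differed by 0.16 with and 0.19 without. Atp5a1, Cox7a2, Uqcr10 and Atp5g2 had a positive difference in both sets.

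Where a gene had several kept probes, these did not always side together. Of 12 such members, 6 had kept probes of opposite sign: Cox6a1, Ndufa8, Ndufb11, Ndufb6, Ndufc1 and Ndufv3. Ndufa8 differed by 0.03 on the probe used for the gene and by -0.11 on the other, and Ndufb6 by 0.10 and -0.11. Of the 11 members that did not pass the filter, 7 were detected on 0 arrays. The others were Cox6b2 and Ndufb4 on 2 arrays, Uqcrfs1 on 4 and Cox7b on 5. A probe that is not detected gives no statement on the transcript.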

How the data were processed

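Total RNA from 6 KHR-NICD and 6 KHR tumours was measured on 1 bead array per tumour. The authors deposited, per the file headers, the mean bead intensity of each probe, a detection p-value against the array's own background, the number of beads and their standard error. The authors' processed intensity, deposited with no stated scale and read as linear, was used as an alternative only. GenomeStudio and Partek are named in the submitters' processing notes, without roles or versions.

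The platform annotation gave 1 gene for 23978 of 25697 probes and left 1719 unlisted. Deposited intensities were turned into log2 values by limma 3.58.1 (R 4.3.3), function neqc (background inferred from detection p-values, offset 16, quantile normalization). Probes needed a detection p under 0.05 on at least 6 of 12 arrays, and each gene took its probe with the highest mean, leaving 8420 genes. Differences were fitted over all genes with lmFit and eBayes and no block, with Benjamini-Hochberg adjustment at 0.05. Slopes on the muscle score were fitted the same way with tumour type, over 8403 genes outside the score. The same-numbered tumours did not pair. Confidence intervals are at 95%, and precision is limited by the number of arrays. Both fits were tested on simulated data. The limma p-values set each difference or slope against the spread between these tumours. They need not cover the variation between mice, since the mouse behind each tumour is not given.

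The members and all gene lists were chosen with earlier results of these data known. Test results went to the 3 members per complex with the smallest p, every Sdh gene, the muscle isoforms and their partners, and the 3 members of each slope direction with the smallest p. The first 2 genes by p of each pathway list were named. Other members and list genes were named after their values were seen. Alternatives covered background correction, scaling, probe filters, probe choice, variance models, array weights, a replicate block, covariates, tumour sets by Eif2s3y detection and leaving out each tumour.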

Additional observations from a re-analysis of the deposited data

Results flagged for a closer look

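KHR-NICD 2 stood apart from the other KHR-NICD tumours for 2 genes. For Ndufb9 it was the highest of its group at 6.88, with the next tumour at 6.65. For Sdhc it was the lowest at 10.18, with the next at 10.52. The gap was 0.657 of the group's range for Ndufb9 and 0.709 for Sdhc, both past Dixon's 95% critical value for 6 tumours. Over the 24 genes looked at, 48 groups were tested, and chance marks about 1 in 20 groups.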

How the results depend on the processing

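The 0 members called lower held under each alternative run, and the 0 called higher under all but those with Eif2s3y detection as a covariate, alone or with the muscle score, which each called 1. The members' median difference was positive in 29 of 30 alternatives, at 0.08 to 0.14 with a tumour left out; median centring gave -0.013, and -0.0076, -0.031, -0.060 and 0.0073 for complexes I, III, IV without muscle isoforms and V. With median centring the median of all genes was -0.08. Detection on at least 3 arrays gave 0.033 for complex III. Tumours without Eif2s3y gave -0.11 for complex II, and tumours with it 0.32, 0.24 and 0.20 for complexes II, IV and V. Positive slope calls among members numbered 3 to 7 with a tumour left out (7 without KHR-NICD 2) and 1 in the tumours without Eif2s3y. Negative slope calls, 1 in the fit as reported, numbered 0 to 1 with a tumour left out, 2 with no background correction, normexp or array weights, and 0 with median centring, the replicate block, the Eif2s3y covariate or the tumours without Eif2s3y. Over all genes, the 17 calls for tumour type became 0 to 216 in other alternatives and 1 to 24 with a tumour left out, and the 890 slope calls 19 to 1594 and 446 to 1175.

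Signs turned for small differences. In order for Cox6a2 and Cox7a1 they were -0.065 and -0.13 with no background correction, -0.029 and -0.11 with normexp, -0.072 and -0.072 with median centring, -0.29 and -0.28 with the Eif2s3y covariate, and -0.88 and -1.005 without Eif2s3y. Cox8b was 0.78 with array weights, 0.090 with the muscle covariate and 0.48 with Eif2s3y. Median centring gave -0.011 for Sdhb, -0.016 for Cox8a and -0.066 for Cox6a1, and tumours without Eif2s3y gave -0.11, -0.0025 and -0.054. Tumours with Eif2s3y gave -0.060 for Uqcrb and -0.082 for Ndufaf4. The slope of Ndufb7 was 0.0074 with median centring and 0.052 with the Eif2s3y covariate. With a tumour left out, Cox6a2 ran from -0.38 to 0.37, Cox7a1 from -0.36 to 0.38, Cox8b from -0.42 to 0.36, Ndufaf3 from -0.15 to 0.0062, and the slope of Cox7a2 from -0.013 to 0.10. The cause of these turns was not tested.

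The replicate numbers gave no sign of pairing: same-numbered tumours correlated at -0.22 to 0.45, and 0 of 6 matched best with their own number. Such correlations cannot exclude a shared mouse or batch. With the number as a replicate block, 0 members and 1 of all genes passed for tumour type, against 17 without it, and the slope calls among members were 3 positive and 0 negative. Sdhd, Ndufb11 and Ndufb2 lie near background, which limits what their probes can show. The means of a complex per tumour with median centring were an alternative chosen after seeing the data; minus the mean of all genes of the same tumour, complex V spanned 2.69 to 2.80 in KHR-NICD tumours and 2.47 to 2.69 in KHR tumours with that scaling, and 2.70 to 2.76 in KHR-NICD tumours and 2.50 to 2.61 in KHR tumours with quantile normalization.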
